A study of Mus musculus with 6 samples.

Results

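The 48 genes described here carry out glucose uptake, glycolysis, lactate production and export, control of pyruvate dehydrogenase, the pentose phosphate pathway and glycogen metabolism. They were chosen by function, from a list of symbols, and all 48 were found, each at a locus of its own, among the 24469 loci measured by RNA-Seq in mouse podocytes (MPCs). MPCs are a murine podocyte line, used at passages 10 to 15 and differentiated for 10 days without interferon gamma after growth in 5.5 mM glucose. All 6 libraries came from cells starved of serum for 12 h and then kept in high glucose (HG, 25 mM) for 12 h. The 3 groups of 2 libraries were HG without FGF1, HG after 1 h with recombinant wild-type FGF1 (rFGF1WT, 100 ng/mL), and HG after 1 h with the mutant rFGF1ΔHBS (100 ng/mL), whose heparan sulfate binding site is altered. The HG cells had no pretreatment, so the pretreatment step and the protein cannot be told apart, and cells in normal glucose were not analysed here. The labels do not say whether the 2 libraries of a group came from separate cultures, so p-values measure the spread between these libraries, which may be technical.

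As background, glucose enters cells through facilitative transporters of the Slc2a family, is phosphorylated and split in the preparatory steps of glycolysis, and yields ATP and pyruvate in the payoff steps. Pyruvate is either reduced to lactate, which leaves the cell through monocarboxylate transporters, or passed to mitochondria by pyruvate dehydrogenase, which the Pdk kinases switch off. The pentose phosphate pathway branches off at glucose 6-phosphate and supplies NADPH, the reducing power of antioxidant enzymes, and ribose for nucleotides. Podocytes are known to draw on glycolysis, and excess glucose is a source of oxidative stress in the diabetic glomerulus.

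Levels are given as FPKM, fragments per length of exon and per depth of library, a scale per length on which genes can be compared. The FPKM of a library summed to 179594 to 185168, and Pearson's r between libraries ran from 0.916 to 0.923 within groups and from 0.895 to 0.924 between groups. Of the podocyte markers, Cd2ap, Actn4, Nes, Podxl and Synpo were well expressed, while the defining markers Wt1 and Ptpro reached at most 0.0731 FPKM in any library and Nphs1 reached at most 0.94. The 11 podocyte markers found summed to 211 to 217 FPKM in HG, 269 to 287 with rFGF1WT and 274 to 279 with rFGF1ΔHBS. The tubule markers found summed to 114 to 123 FPKM in HG, 93.0 to 94.3 with rFGF1WT and 91.1 to 96.3 with rFGF1ΔHBS, nearly all from Cdh16 and Lrp2, with Slc12a1 and Aqp2 at or near 0. The 6 mesangial and stromal markers summed to 43.4 to 48.2 FPKM over all libraries and the 6 endothelial markers to 1.20 to 3.56, with Pecam1, Cdh5 and Kdr near 0. The 6 macrophage markers summed to 61.1 to 62.8 FPKM in HG, 66.9 to 69.7 with rFGF1WT and 71.1 in both rFGF1ΔHBS libraries, mostly from Cd68, whose locus is merged with Eif4a1, while Ptprc and Adgre1 were near 0. The part of these shifts in the results was not tested, and in bulk RNA fewer cells of a type and less RNA per cell cannot be told apart.

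Of the 48 genes, 6 had a mean over the libraries of at least 100 FPKM, 22 lay between 10 and 100, 12 between 1 and 10, and 8 below 1. The most abundant were Pkm (mean 194), Pgam1 (179.6), Aldoa (169.8), Eno1 (153), Ldhb (116) and Ldha (111). The 40 genes with a mean of at least 1 FPKM entered the test, in which limma was fitted to log2(FPKM + 1) over all 10562 loci past that filter and a change was called at a Benjamini-Hochberg adjusted p under 0.05. The 8 genes below it were Slc2a3, Slc2a4, Slc2a10, Slc2a12, Pfkfb1, Slc16a3, Pdk4 and Pygl, and they have no test.

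**Figure D1:**
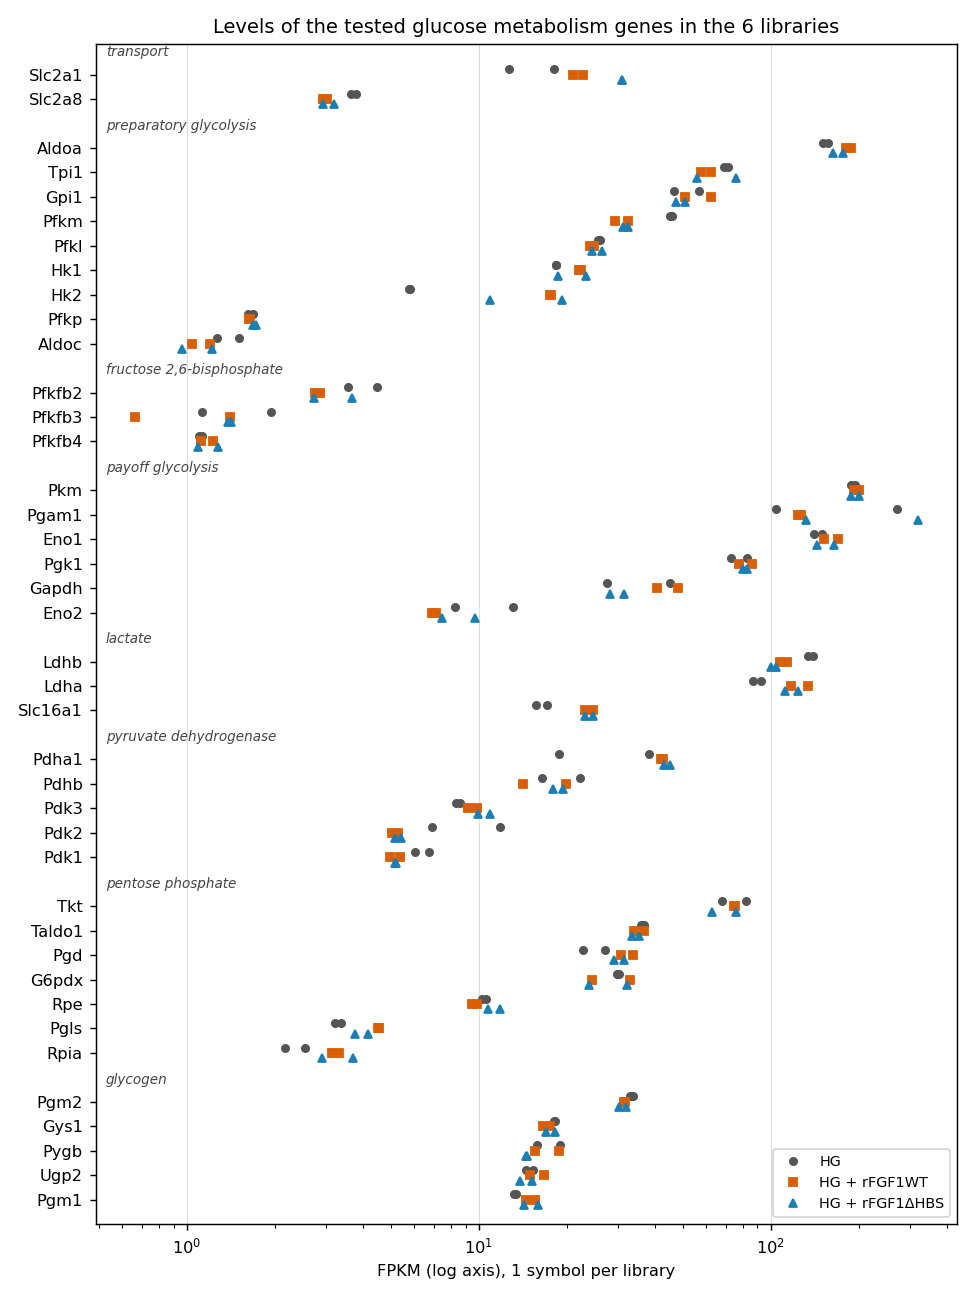
Each symbol is the FPKM (log axis) of 1 library for each of the 40 tested genes, ordered by role and by mean level. Most genes had all 6 libraries close together, Hk2 and Slc2a1 had the HG libraries below the others, and Pgam1 spread from 104 to 319.9 FPKM without regard to group.

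With rFGF1WT, 2 of the 40 tested genes passed (5.0%), against 6.19% of all tested loci. Pfkm, a phosphofructokinase, was lower (as 2.94% of loci were) and Slc16a1, the lactate transporter MCT1, was higher (3.26% of loci). With rFGF1ΔHBS, 3 of the 40 passed (7.5%), against 6.26% of all tested loci: Pfkm and Ldhb, a lactate dehydrogenase, were lower (2.89% of loci), and Slc16a1 was higher (3.37% of loci). Between rFGF1ΔHBS and rFGF1WT, 0 of the 40 passed by limma, against 0.549% of all tested loci, and 2 had an unadjusted p under 0.05, where 4.87% of all loci did; both were higher, as 2.45% of loci were. At an unadjusted p under 0.05 there were 13 genes with rFGF1WT (32.5%, against 24.8%) and 12 with rFGF1ΔHBS (30%, against 24.9%). As a set the genes thus passed about as often as the other loci. None of them passed with the 2-fold limit of the study's methods added, here set on the log2(FPKM + 1) scale. Of all loci, 1.01% passed with that limit for rFGF1WT, 0.899% for rFGF1ΔHBS and 0.35% between the proteins. The comparisons with HG share the HG libraries, so their values are set side by side and do not count as separate evidence.

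The calls on Pfkm, Ldhb and Slc16a1 rested on all 6 libraries. Without any 1 of the 6, each of these calls missed the threshold, with limma adjusted p from 0.0536 to 0.133 and with its direction kept.

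The fitted changes of the 40 genes were balanced in direction. The median log2 fold change of the 40 genes was -0.00 with rFGF1WT and -0.03 with rFGF1ΔHBS, beside -0.04 for all tested loci in both comparisons. With rFGF1WT, 20 genes had a positive and 20 a negative fitted change, and with rFGF1ΔHBS 19 and 21. The HG and rFGF1WT libraries did not overlap for 13 genes that were higher (24.1% of all loci were) and 13 that were lower (34.1% of all loci), 65.0% of the genes against 58.2% of loci. For rFGF1ΔHBS against HG this held for 14 higher (24.4% of loci) and 9 lower genes (32.9% of loci), 57.5% against 57.3%. The summed FPKM of the 47 genes other than Pgam1 was 1462 and 1452 in HG, 1579 and 1513 with rFGF1WT, and 1459 and 1522 with rFGF1ΔHBS.

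**Figure D2:**
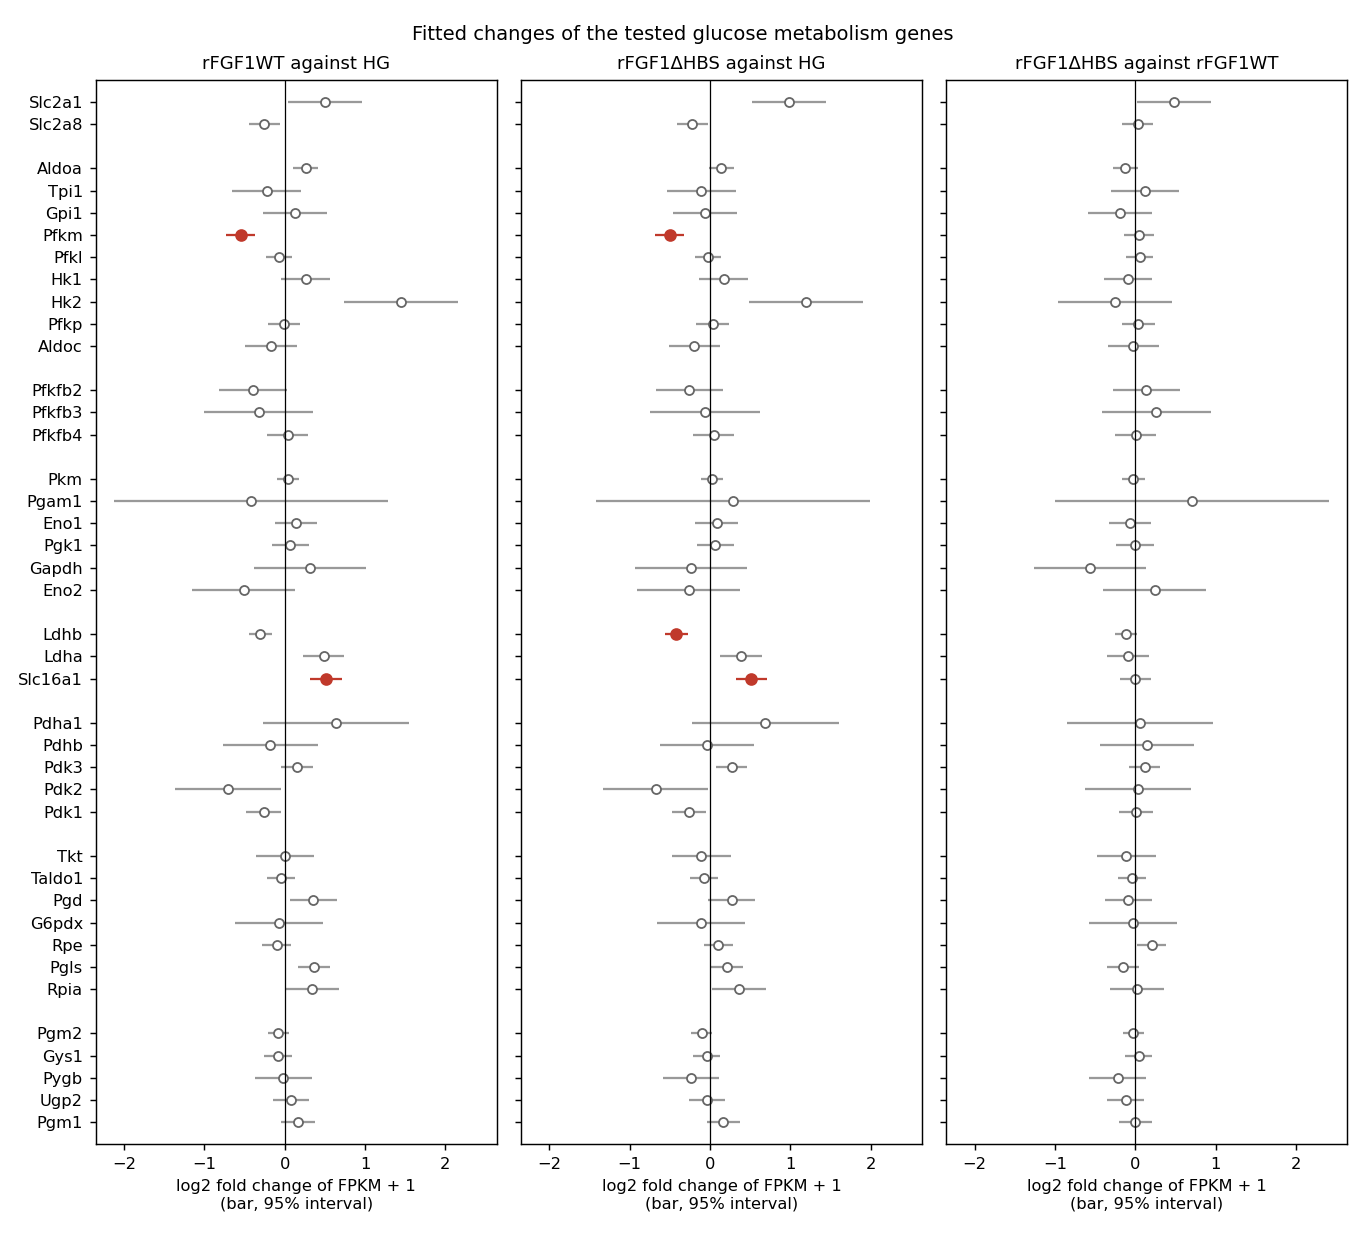
Fitted log2 fold changes of FPKM + 1 for the 40 tested genes, with 95% intervals, in the 3 comparisons; filled red points passed an adjusted p of 0.05. Only Pfkm and Slc16a1 are filled for rFGF1WT and Pfkm, Ldhb and Slc16a1 for rFGF1ΔHBS, while Hk2 has the largest fitted change against HG and a wide interval.

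Among the 6 listed glucose transporter genes, Slc2a1 had the highest FPKM. Slc2a1 (GLUT1, the basal glucose transporter; chr4:119108711-119137983, GRCm38) measured 12.7 and 18.1 FPKM in HG, 22.7 and 21.0 with rFGF1WT, and 30.9 in both libraries with rFGF1ΔHBS. The 3 groups did not overlap, with HG lowest and rFGF1ΔHBS highest, but the HG libraries lay far apart. On the log2(FPKM + 1) scale the fitted change was 0.50 ± 0.17 (SE) with rFGF1WT (limma adjusted p = 0.181) and 0.98 ± 0.17 with rFGF1ΔHBS (limma adjusted p = 0.0533). Without HG replicate 2, the higher of the HG libraries, the changes were 0.74 (limma adjusted p = 0.0592) and 1.22 (0.0315, which passes). Without HG replicate 1 they were 0.26 (limma adjusted p = 0.219) and 0.74 (0.0699), and neither passed. Between the 2 proteins Slc2a1 differed by 0.48 (95% interval 0.02 to 0.95, limma adjusted p = 0.905).

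Slc2a8, an intracellular transporter, had 3.64 and 3.80 FPKM in HG and 2.92 to 3.19 in the 4 treated libraries, and did not pass. The insulin-responsive transporter Slc2a4 was listed at 0.0999 and 0.147 in HG, at 0.0767 and 0 with rFGF1WT, and at 0.0486 and 0.0885 with rFGF1ΔHBS. Slc2a10 was listed at 0.0304 and 0.0125, at 0.0187 and 0, and at 0.0121 and 0.0124 in the same order. Slc2a12 was listed at 0 and 0.0369, at 0.0169 and 0.0104, and at 0.00774 and 0.0157. Together with Slc2a3, at 0.0183 to 0.0534, these 4 genes contributed little. Slc2a1 made up 76.8% and 81.7% of the summed FPKM of the 6 transporters in HG, 88.1% and 87.3% with rFGF1WT, and 91.1% and 90.3% with rFGF1ΔHBS. Most of the rest was Slc2a8.

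The entry step of glycolysis is the phosphorylation of glucose by hexokinases. Hk2, the inducible hexokinase of muscle, fat and growing cells (chr6:82725025-82774454), had 5.78 and 5.81 FPKM in HG, 17.5 and 17.7 with rFGF1WT, and 10.9 and 19.3 with rFGF1ΔHBS. Every treated library exceeded the HG pair, and the rFGF1ΔHBS pair lay 1.77-fold apart. The ratio of the means was 3.03 with rFGF1WT and 2.61 with rFGF1ΔHBS. The fitted changes, 1.45 ± 0.26 (SE, limma adjusted p = 0.0584) and 1.20 ± 0.26 (SE, limma adjusted p = 0.0828), did not pass. They were the largest of the 40 genes in both comparisons. The rFGF1WT change passed in a fit of the 4 HG and rFGF1WT libraries alone (limma adjusted p = 0.0187), which leaves out the wide rFGF1ΔHBS pair. Without rFGF1ΔHBS replicate 1 the rFGF1ΔHBS change was 1.58, and without replicate 2 it was 0.81. Either omission also takes the spread of that pair out of the fit, so the spread then comes from the closer HG and rFGF1WT pairs. The rFGF1ΔHBS change did not pass in a fit of its 4 libraries alone (limma adjusted p = 0.149), and without an HG or rFGF1WT library neither change passed (limma adjusted p from 0.148 to 0.236).

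Hk1, the constitutive hexokinase, had 18.3 and 18.4 FPKM in HG, 22.0 and 22.4 with rFGF1WT, and 18.6 and 23.2 with rFGF1ΔHBS, and did not pass. The fitted change of Hk1 was 0.26 with rFGF1WT and 0.17 with rFGF1ΔHBS. Hk2 made up 24.0% ± 0.06 (SD, n = 2) of the summed hexokinase FPKM in HG, 44.2% ± 0.15 (n = 2) with rFGF1WT and 41.2% ± 5.93 (n = 2) with rFGF1ΔHBS. These shares, and those of the other families below, were formed after the values had been seen and are given without a test, since an exact permutation test of 2 against 2 cannot go below p = 0.333.

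Phosphofructokinase, the committed step, is encoded by the muscle-type Pfkm, the liver-type Pfkl and the platelet-type Pfkp. Pfkm (chr15:98092589-98132451) measured 45.2 and 45.7 FPKM in HG, 32.5 and 29.2 with rFGF1WT, and 31.2 and 32.5 with rFGF1ΔHBS. The HG libraries were about equal and well above all 4 treated ones. Pfkm fell by 0.55 on the log2 scale with rFGF1WT (SE 0.07, limma adjusted p = 0.0262) and by 0.50 with rFGF1ΔHBS (SE 0.07, limma adjusted p = 0.0323), to 0.68 and 0.70 of the HG mean. The 2 proteins differed by 0.05 (95% interval -0.13 to 0.23).

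Pfkl had 25.6 and 26.0 FPKM in HG, 24.8 and 24.0 with rFGF1WT, and 24.4 and 26.4 with rFGF1ΔHBS. Pfkp stayed between 1.61 and 1.73 FPKM in the 6 libraries. Neither passed. Pfkm therefore made up 62.4% of phosphofructokinase FPKM in both HG libraries, 55.1% and 53.2% with rFGF1WT, and 54.5% and 53.5% with rFGF1ΔHBS, and it remained the leading form in every library.

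The Pfkfb enzymes set the level of fructose 2,6-bisphosphate, the activator of phosphofructokinase. Pfkfb2, the most abundant of them, had 3.55 and 4.47 FPKM in HG, 2.73 and 2.85 with rFGF1WT, and 3.68 and 2.72 with rFGF1ΔHBS. The rFGF1WT libraries were below HG and those of rFGF1ΔHBS overlapped it. Pfkfb4 had 1.09 to 1.28 FPKM and Pfkfb1 0.697 to 0.960. Pfkfb3, the form with the strongest kinase activity, had 1.13 and 1.94 in HG, 1.41 and 0.662 with rFGF1WT, and 1.38 and 1.42 with rFGF1ΔHBS. Its HG and rFGF1WT pairs spread by 1.72-fold and 2.12-fold, which covers the differences between groups. None of the 3 tested forms passed.

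Of the other preparatory enzymes, Aldoa, the main aldolase, had 157 and 151 FPKM in HG, 189 and 181 with rFGF1WT, and 163 and 177 with rFGF1ΔHBS. All treated libraries were above HG, by a fitted 0.26 ± 0.06 (SE) with rFGF1WT (limma adjusted p = 0.0859) and 0.14 with rFGF1ΔHBS (limma adjusted p = 0.244). Aldoc, the brain-type aldolase, stayed at 0.958 to 1.5. Gpi1, which isomerizes glucose 6-phosphate, ranged from 46.6 to 62.5 with overlapping groups. Tpi1, triose phosphate isomerase, ranged from 55.8 to 75.9 at a locus merged with its neighbour Usp5, so reads of the 2 genes cannot be told apart.

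In the payoff steps 0 of the 6 genes passed in any comparison by limma, and 0 had an unadjusted p under 0.05. Against HG, 6.19% and 6.26% of all loci passed and 24.8% and 24.9% had such a p. Pkm, pyruvate kinase, had 194 and 188 FPKM in HG, 200.4 and 193 with rFGF1WT, and 188 and 199.8 with rFGF1ΔHBS. Of the 6 genes with a mean of at least 100 FPKM it had the narrowest range, with fitted changes of 0.05 (95% interval -0.09 to 0.18) and 0.02 (95% interval -0.12 to 0.16). The table gives 1 value for the locus, so the M1 and M2 splice forms were not separated. Pgk1, phosphoglycerate kinase, lay between 73.1 and 85.9, and Eno1, the ubiquitous enolase, between 140.1 and 169. The neuronal enolase Eno2 had 8.29 and 13.1 in HG, 6.92 and 7.15 with rFGF1WT, and 9.68 and 7.46 with rFGF1ΔHBS.

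Gapdh and Pgam1 varied between libraries of 1 group. Pgam1, phosphoglycerate mutase, had 271 and 104 FPKM in HG, 127 and 124 with rFGF1WT, and 319.9 and 132 with rFGF1ΔHBS. HG replicate 1 and rFGF1ΔHBS replicate 1 were high and the other 4 libraries lay together, so the spread within groups was as wide as that between them. Gapdh, glyceraldehyde 3-phosphate dehydrogenase and a common reference gene, had 45.3 and 27.4 in HG, 48.1 and 40.7 with rFGF1WT, and 28.1 and 31.4 with rFGF1ΔHBS.

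Near-identical copies bore on some of these values. The copy Gapdh-ps15 was listed at 0 and 21.2 FPKM in HG, at 0 in both rFGF1WT libraries, and at 19.4 and 0 with rFGF1ΔHBS, each time with a low Gapdh value beside the high copy. Summed, the 2 loci gave 45.3 and 48.6 in HG, 48.1 and 40.7 with rFGF1WT, and 47.5 and 31.4 with rFGF1ΔHBS. The copy Pgk1-rs7 was at 56.8 FPKM in rFGF1WT replicate 2 and at 0 in the other 5 libraries. Eno1b, a copy of Eno1, was listed at 62.2 to 85.1. How the authors' counting divided reads among such copies was not given in the sources used here, and the values of Gapdh, Pgk1 and Eno1 are uncertain to that extent. The copy Pgam1-ps1 was listed at 0 to 0.150 FPKM, far below the differences between libraries in Pgam1.

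**Figure D3:**
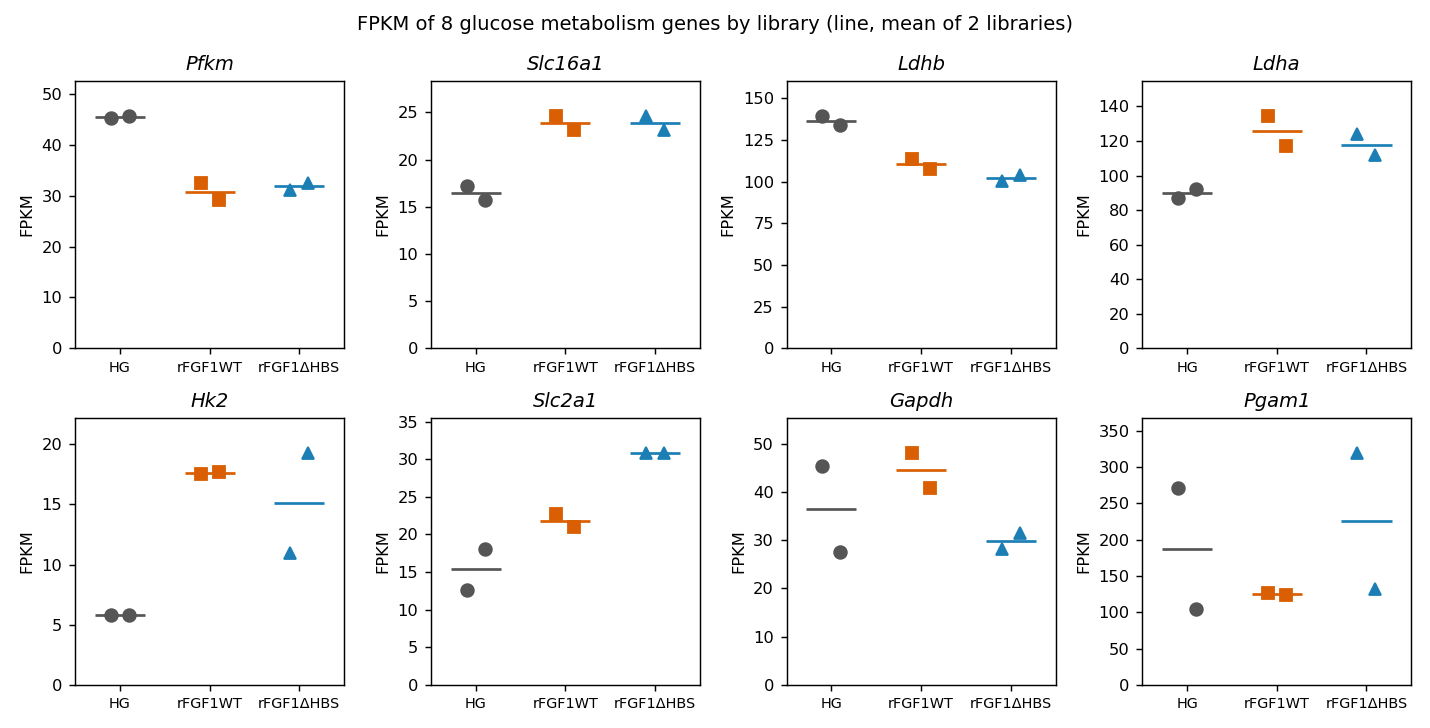
FPKM (axis from 0) of 8 genes in each library, with the mean of the 2 libraries of a group as a line. Pfkm and Ldhb sit highest in HG, Slc16a1, Ldha, Hk2 and Slc2a1 lowest in HG, and the HG pairs of Gapdh (45.3 and 27.4) and Pgam1 (271 and 104) are far apart.

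Lactate is made and used by lactate dehydrogenase and carried by monocarboxylate transporters. Ldhb, the heart-type lactate dehydrogenase subunit, which favours the oxidation of lactate to pyruvate (chr6:142490249-142507957), had 139.5 and 134 FPKM in HG, 113 and 108 with rFGF1WT, and 100.3 and 104 with rFGF1ΔHBS. The 3 groups did not overlap and HG was highest. Ldhb fell by 0.42 on the log2 scale with rFGF1ΔHBS (SE 0.05, limma adjusted p = 0.0270), to 0.747 of the HG mean. With rFGF1WT the fitted change was -0.30 ± 0.05 (SE), and its limma adjusted p of 0.0503 lay just above the threshold. It passed with a pseudocount of 0.1 (adjusted p = 0.0494), a filter at a mean of 5 FPKM (0.0461) and quantile normalization (0.0195). It did not pass under the other 12 of 15 alternatives, with adjusted p up to 0.172. A call made for rFGF1ΔHBS and not for rFGF1WT does not by itself show a difference between the proteins. Compared directly, they differed by -0.11 (95% interval -0.25 to 0.02, limma adjusted p = 0.905), which did not pass.

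Ldha, the muscle-type subunit, which favours the reduction of pyruvate to lactate, went the other way without passing. It had 86.9 and 92.4 FPKM in HG, 135 and 117 with rFGF1WT, and 124 and 112 with rFGF1ΔHBS. All treated libraries were above HG, with fitted changes of 0.48 ± 0.10 (SE, limma adjusted p = 0.0705) and 0.39 ± 0.10 (limma adjusted p = 0.0995). Ldha made up 38.4% and 40.8% of the summed Ldha and Ldhb FPKM in HG, 54.3% and 52.1% with rFGF1WT, and 55.3% and 51.8% with rFGF1ΔHBS. Ldhb RNA thus had the higher FPKM in both HG libraries and Ldha RNA in all 4 treated ones. Subunit protein was not measured here.

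Slc16a1, which carries lactate and pyruvate with protons across the membrane (chr3:104638668-104658462), had 17.2 and 15.7 FPKM in HG, 24.6 and 23.1 with rFGF1WT, and 24.6 and 23.1 with rFGF1ΔHBS. The treated libraries of both kinds lay at the same level, all above HG. Slc16a1 rose by 0.51 on the log2 scale in both comparisons (SE 0.07, limma adjusted p = 0.0360 and 0.0354), to 1.45 times the HG mean. Between the proteins the difference was 0.00 (95% interval -0.19 to 0.20). Slc16a3 (MCT4), the exporter of strongly glycolytic cells, was listed at 0.0694 to 0.114 FPKM, so Slc16a1 accounted for at least 99.3% of the FPKM of the 2 transporters in every library.

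The sequences upstream of the 3 called genes are shown because these genes changed under both proteins or under rFGF1ΔHBS. They are the 250 bases before the RefSeq start site (GRCm38.p6) nearest to a transcript listed for the locus, written 5′ to 3′ on the strand of the gene. Capitals mark ACGTG or GCGTG, the core letters of the hypoxia response element, on either strand; CCGGAA, the core of ETS factor sites, was searched as well and is absent from all 3 windows. The windows are Pfkm at chr15:98092339-98092588 (+), Ldhb at chr6:142507958-142508207 (-) and Slc16a1 at chr3:104638414-104638663 (+).
Pfkm: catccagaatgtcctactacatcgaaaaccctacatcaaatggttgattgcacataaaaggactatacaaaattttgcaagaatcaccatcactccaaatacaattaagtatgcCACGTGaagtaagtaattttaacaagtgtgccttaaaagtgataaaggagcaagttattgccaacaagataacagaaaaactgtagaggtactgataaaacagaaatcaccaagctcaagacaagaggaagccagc
Ldhb: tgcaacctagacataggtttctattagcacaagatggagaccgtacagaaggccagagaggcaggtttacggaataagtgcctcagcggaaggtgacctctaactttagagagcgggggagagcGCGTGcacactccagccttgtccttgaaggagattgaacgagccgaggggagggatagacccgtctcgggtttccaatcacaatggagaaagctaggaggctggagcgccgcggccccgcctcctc
Slc16a1: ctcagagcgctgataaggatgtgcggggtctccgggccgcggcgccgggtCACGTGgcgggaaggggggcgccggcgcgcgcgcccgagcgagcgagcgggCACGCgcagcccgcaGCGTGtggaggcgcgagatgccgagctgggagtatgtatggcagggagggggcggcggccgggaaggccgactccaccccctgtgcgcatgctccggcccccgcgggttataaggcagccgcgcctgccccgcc
The Pfkm and Slc16a1 windows each hold 1 CACGTG, the palindromic E-box, which also reads as ACGTG on both strands. Pfkm has other RefSeq start sites downstream, and the windows before those hold no CACGTG. The values do not say which start was used. Among the 46 genes with a RefSeq window, 35 (76.1%) held ACGTG or GCGTG, against 38.6% of the 32851 RefSeq windows of the same length. CACGTG was in 2 (4.35%, against 6.02%), CCGGAA in 4 (8.70%, against 12.0%), and GGGCGG, the GC box, in 28 (60.9%, against 32.7%). Windows at other start sites, which were not chosen, held CACGTG for Ldha, Pfkfb2, Pfkfb3 and Pdk2. Such windows held CCGGAA for Pfkfb1, Aldoc and Ldha. The shares therefore depend on which window was taken. The windows of these genes were richer in G and C, with a median of 59.4% against 52.4%, and 1 window was taken per gene whereas all windows entered the total. A match is a description of the letters and not of a factor bound there.

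Of the 5 tested genes around pyruvate dehydrogenase 0 passed by limma in any comparison, and 2 with rFGF1WT, 3 with rFGF1ΔHBS and 0 between the proteins had an unadjusted p under 0.05 (24.8%, 24.9% and 4.87% of all loci). Pdk1, a kinase that inactivates the complex, had 6.03 and 6.75 FPKM in HG, 5.36 and 4.94 with rFGF1WT, and 5.16 and 5.19 with rFGF1ΔHBS. All treated libraries were below HG, by a fitted -0.26 in both comparisons (limma adjusted p = 0.145 and 0.148). Pdk2, the broadly expressed kinase, had 6.89 and 11.8 in HG and 5.05 to 5.42 in the 4 treated libraries. Pdk3 had 8.34 and 8.59 in HG, 9.19 and 9.86 with rFGF1WT, and 9.95 and 10.9 with rFGF1ΔHBS. Pdk4, the kinase induced by fasting, was listed at 0.0636 to 0.183.

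Pdk3 thus made up 39.0% and 31.5% of the summed Pdk FPKM in HG, 46.2% and 49.4% with rFGF1WT, and 48.6% and 50.3% with rFGF1ΔHBS. The share of Pdk2 was 32.2% and 43.3% in HG and 25.0% to 26.5% in the treated libraries.

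Of the enzyme itself, Pdha1, the E1 alpha subunit, had 18.8 and 38.4 FPKM in HG, 42.0 and 42.7 with rFGF1WT, and 45.1 and 43.1 with rFGF1ΔHBS. The treated libraries were all above HG, but the HG pair lay 2.04-fold apart. Its fitted changes were 0.63 ± 0.34 (SE, limma adjusted p = 0.336) and 0.69 ± 0.34 (limma adjusted p = 0.306). Without HG replicate 2 they were 1.13 and 1.19 and passed (limma adjusted p = 0.0245 and 0.0254). Without HG replicate 1 they were 0.14 and 0.20 and did not (limma adjusted p = 0.337 and 0.239). Pdhb, the E1 beta subunit, ranged from 14.1 to 22.2 with overlapping groups.

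**Figure D4:**
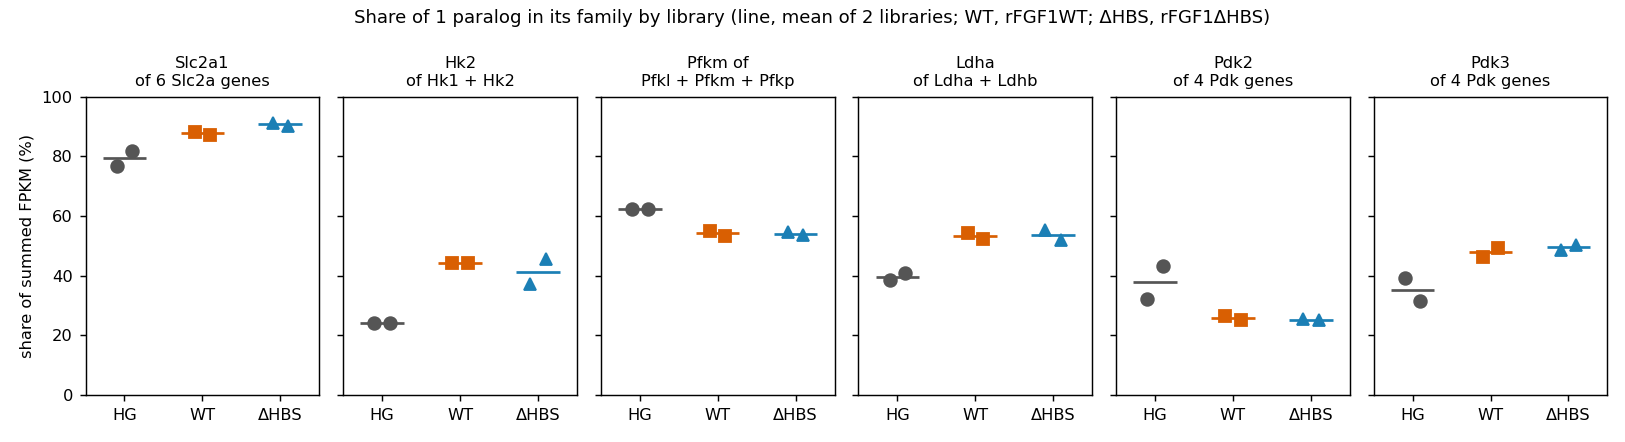
Share of 1 gene in the summed FPKM of its family (%, axis from 0 to 100) in each library, with the mean of the 2 libraries as a line. Hk2 and Ldha took larger shares and Pfkm a smaller share in the treated libraries than in HG; the shares were formed after the values had been seen and were not tested.

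In the pentose phosphate pathway 0 of 7 genes passed by limma in any comparison, and 3 with rFGF1WT, 2 with rFGF1ΔHBS and 1 between the proteins had an unadjusted p under 0.05. Of all loci 6.19%, 6.26% and 0.549% passed and 24.8%, 24.9% and 4.87% had such a p. Tkt, transketolase, was the most abundant, with 82.5 and 67.9 FPKM in HG, 74.5 and 75.4 with rFGF1WT, and 63.1 and 76.1 with rFGF1ΔHBS. G6pdx, the X-linked gene of the enzyme that commits glucose 6-phosphate to the pathway and a known target of Nrf2, had 29.8 and 30.1 in HG, 24.4 and 33.0 with rFGF1WT, and 23.9 and 32.1 with rFGF1ΔHBS. In both treated groups 1 library was below and 1 above the HG pair. The fitted changes were -0.08 (95% interval -0.62 to 0.47) and -0.11 (95% interval -0.66 to 0.44).

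The 2 enzymes after it were higher in every treated library without passing. Pgls, the lactonase, had 3.21 and 3.37 FPKM in HG, 4.54 and 4.51 with rFGF1WT, and 3.76 and 4.18 with rFGF1ΔHBS, at a locus merged with Fam129c (limma adjusted p = 0.0722 and 0.181). Pgd, which yields the second NADPH, had 22.8 and 27.1 in HG, 33.6 and 30.7 with rFGF1WT, and 29.0 and 31.4 with rFGF1ΔHBS (limma adjusted p = 0.148 and 0.228). Rpia, ribose 5-phosphate isomerase, had 2.53 and 2.16 in HG and 2.91 to 3.70 in the treated libraries (limma adjusted p = 0.194 and 0.179). Rpe, the epimerase, had 9.46 and 9.85 with rFGF1WT and 10.8 and 11.8 with rFGF1ΔHBS, on either side of the HG values of 10.3 and 10.6. Taldo1, transaldolase, lay between 33.5 and 36.9.

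Of the 5 tested glycogen genes 0 passed by limma in any comparison, and 0 had an unadjusted p under 0.05, which 24.8% and 24.9% of all loci had against HG. The most abundant was the locus named Pgm2, with 33.8 and 33.0 FPKM in HG, 31.7 and 31.3 with rFGF1WT, and 30.2 and 31.8 with rFGF1ΔHBS, and the locus named Pgm1 had 13.2 to 15.9. Both encode phosphoglucomutases, and the transcripts listed for the locus named Pgm2 are those that current annotation assigns to Pgm1, and the reverse. Gys1, the muscle-type glycogen synthase, lay between 16.5 and 18.3, Ugp2, which makes UDP-glucose, between 13.9 and 16.7, and Pygb, the brain-type phosphorylase, between 14.4 and 18.9. The liver phosphorylase Pygl was listed at 0 in both HG and both rFGF1ΔHBS libraries and at 0.00649 and 0.0128 with rFGF1WT.

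The wild-type and mutant proteins, which were given at the same dose for the same time, were compared once for each of the 40 genes, with p-values adjusted over all 10562 loci. The median absolute log2 difference between them was 0.09, beside 0.24 for rFGF1WT and 0.18 for rFGF1ΔHBS against HG. For 38 of the 40 genes the 95% interval of the difference lay within 1 in either direction on the log2(FPKM + 1) scale. For the other 2, Gapdh and Pgam1, it did not. At low FPKM that limit allows more than a 2-fold difference in FPKM. The 2 genes with an unadjusted p under 0.05 were Slc2a1 and Rpe, both higher with rFGF1ΔHBS (Rpe by 0.21, 95% interval 0.02 to 0.39, limma adjusted p = 0.905). The libraries of the 2 proteins did not overlap for 7 genes higher and 5 lower with rFGF1ΔHBS (18.4% and 16.1% of all loci, 34.5% together). A p that misses the threshold does not show that the proteins act alike on a gene.

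Beyond these 48 genes, a wider list of 69 genes of glucose transport, gluconeogenesis, pyruvate, pentose phosphate and glycogen metabolism was read in the same fit. Of these 61 were found and 36 were tested, and 1 passed in each comparison with HG (2.78%, against 6.19% and 6.26% of all loci), the same gene both times, and 0 by limma between the proteins, where 0 also had an unadjusted p under 0.05. It was Pklr, the pyruvate kinase of liver and red cells (chr3:89136142-89146784), which had 4.39 and 4.77 FPKM in HG, 2.19 and 2.0 with rFGF1WT, and 1.89 and 1.91 with rFGF1ΔHBS. All treated libraries were below HG. Pklr fell by 0.85 on the log2(FPKM + 1) scale with rFGF1WT (SE 0.08, limma adjusted p = 0.0169) and by 0.94 with rFGF1ΔHBS (SE 0.08, limma adjusted p = 0.0156). At such low levels the added 1 makes the fitted fall smaller than the fall in FPKM itself. Beside Pkm it was a small part of pyruvate kinase FPKM in all libraries, 2.22% and 2.48% in HG and 0.946% to 1.08% with either protein.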

How the data were processed

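Poly(A) RNA of 6 MPC libraries was sequenced with paired ends. The authors deposited FPKM per locus, 1 column per library, which their methods say edgeR summarized. The submitters' processing notes name Bowtie 0.12.2, HISAT2 2.0, StringTie 1.3.0 and the build mm8, without roles. Positions were looked up in GENCODE M21 (GRCm38) by Ensembl transcript ID, with 99.6% of the IDs matched, and upstream sequences in RefSeq. Depth cannot be read from FPKM, so its precision is unknown.

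Groups and replicates followed the labels. The genes and lists were chosen with earlier results of these data known, and 1 marker gene of the lists is not reported here by name. Where a symbol named more than 1 locus, the most abundant was used. The test was limma 3.58.1 (R 4.3.3; lmFit, contrasts, eBayes with a trend) on log2(FPKM + 1) of 10562 loci whose mean was 1 FPKM or more, all 6 libraries sharing the spread (3 residual degrees of freedom), with Benjamini-Hochberg adjustment over all loci. Of the tested loci 290 had a library at 0. Named with full values were all genes with an adjusted p under 0.05, the most abundant gene of each role and the enzymes of committed steps. On simulated data for rFGF1WT against HG with 200 changed genes among 10562, limma called 140 (70.0%) and 13 unchanged ones. That share was not split by size of change, and recovery at the size of the changes called here was not tested. Alternatives were the pseudocount, filters, scalings, samples, variance model, fold limit, replicate block and leaving out each library. Python 3.11.15 with pandas 2.3.3, numpy 2.4.6 and matplotlib 3.10.9 made the tables and plots.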

Additional observations from a re-analysis of the deposited data

How the results depend on the processing

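The number of the 40 genes that passed was 2 with rFGF1WT, 3 with rFGF1ΔHBS and 0 between the proteins. The last was 0 under every alternative run by limma, and 2 genes had an unadjusted p under 0.05 in the fit as reported. With rFGF1WT it was 1 with no filter on low values, 1 in a fit of only the 4 libraries compared, and 0 with the 2-fold limit; leaving out 1 library gave 0 to 1. With rFGF1ΔHBS it was 0 with no filter, 0 with only the 4 libraries compared and 0 with the 2-fold limit; leaving out 1 library gave 0 to 2. These fits test more loci or rest on fewer libraries, or ask for a larger change, by construction. The genes that passed with a library left out were not Pfkm, Ldhb or Slc16a1: they were Pdk2 without HG replicate 1, Pdha1 (and, with rFGF1ΔHBS, Slc2a1) without HG replicate 2, and Hk2 without either rFGF1ΔHBS library. The pseudocount of 0.1, the filter at 5 FPKM, both scalings, robust empirical Bayes and no trend gave 2 to 3 with rFGF1WT and 3 to 4 with rFGF1ΔHBS, all including the genes called. The added gene was Ldhb with rFGF1WT and Slc2a1 with rFGF1ΔHBS.

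With the replicate number as a replicate block, 0 genes passed in each comparison. Whether the numbers pair the libraries is not known. Over the tested loci, deviations of same-numbered libraries correlated at -0.02, 0.10 and -0.05. A shared shift limited to some genes was not tested. The fitted sign turned under some alternative for 11 of the 40 genes with rFGF1WT and 16 with rFGF1ΔHBS, none of them called. Where 1 library of a group was left out, the lone one was assumed to vary like the other groups. Depth is not known from FPKM, so the precision it sets could not be given.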

Other observations

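Prps2, which makes phosphoribosyl pyrophosphate from the ribose 5-phosphate of the pentose phosphate pathway, stood out by size in the wider list and was chosen after its values had been seen. It had 36.0 and 33.7 FPKM in HG, 10.9 and 7.84 with rFGF1WT, and 28.4 and 13.0 with rFGF1ΔHBS. All treated libraries were below HG, and the rFGF1ΔHBS pair lay far apart. Its fitted log2 fold change was -1.81 ± 0.40 (SE) with rFGF1WT (limma adjusted p = 0.0833) and -0.82 ± 0.40 with rFGF1ΔHBS (limma adjusted p = 0.298), and the proteins differed by 0.99 (95% interval -0.08 to 2.05, limma adjusted p = 0.905), so it passed in no comparison.

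The spread between the 2 libraries of a group was over 1.5-fold for 6 of the 40 tested genes in HG, for 1 with rFGF1WT and for 2 with rFGF1ΔHBS, 7 genes in all. They were Hk2, Pfkfb3, Gapdh, Pgam1, Eno2, Pdk2 and Pdha1. The median ratio of the higher to the lower library was 1.06 in HG, 1.07 with rFGF1WT and 1.09 with rFGF1ΔHBS, so most genes were far tighter than these.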
